A study of Mus musculus with 25 samples.

Results

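Heat shock proteins and molecular chaperones were followed in neuronal nuclei of the mouse hippocampus. The members were all genes whose symbol begins with Hsp followed by a digit or a letter from a to h, with Dnaja, Dnajb or Dnajc, or with Cct and a digit from 2 to 8, together with Tcp1, and 85 of the 24411 genes in each table met this rule. They comprised 28 J proteins of class C, 13 of class B and 4 of class A, 11 Hsp70 genes, 10 genes of the CCT chaperonin family, 7 small heat shock proteins, 3 Hsp90 genes, 3 Hsp110 genes, the 2 subunits of the mitochondrial chaperonin and 4 genes that match the name but belong to none of these families (Hspg2, which encodes the matrix proteoglycan perlecan, and Hspb11, Hspbp1 and Hspbap1). No measured value was used to choose them.

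Chaperones bind unfolded or partly folded proteins and let them fold, cross membranes or be handed on for degradation. Hsp70 proteins cycle between binding and release of a client with the hydrolysis of ATP, J proteins bring clients to Hsp70 and trigger that hydrolysis, Hsp110 proteins exchange its nucleotide, Hsp90 acts late on kinases and receptors, and the ring-shaped chaperonins enclose a client, CCT (also called TRiC) in the cytosol for actin and tubulin and Hspd1 with Hspe1 in mitochondria. Neurons hold a large constitutive pool of Hsp70 and Hsp90, and the J protein Dnajc5 (cysteine string protein) with Hspa8 keeps vesicle proteins folded at the synapse.

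RNA was sequenced from nuclei that had been sorted for NeuN, a neuronal nuclear antigen, from male mice in 3 experiments with 25 libraries. The aging mice were labelled wild type, and the study's methods name C57BL/6J mice and aged C57BL/6 mice. The aging experiment compared 3 libraries of young (3 months) with 2 of aged (18 months) mice. The overexpression experiment used young mice whose CA1 and dentate gyrus had been injected with lentivirus carrying Ftl1, the gene of ferritin light chain, or GFP alone under the neuronal synapsin-1 promoter, giving 7 libraries labelled Ftl1 OE and 5 with GFP as control. The knockdown experiment used aged mice injected with lentivirus carrying short hairpin RNA against Ftl1 or against luciferase, giving 4 libraries labelled Ftl1 KD and 4 with sh-Luc as control; sorting was on NeuN and not on the virus, so that nuclei without virus could be included.

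The transcript of Ftl1 did not follow the labels of either viral experiment. Its normalized count was 106 to 139.6 in the libraries labelled Ftl1 KD and 24.2 to 56.2 in their controls, and 4737 to 7663 in the libraries labelled Ftl1 OE against 4580.4 to 28309 in their controls, so both groups are named by their labels throughout. Reads numbered 7969282 to 9537872 per library in the aging, 9943996 to 17034325 in the overexpression and 48902 to 358560 in the knockdown experiment, where the ribosomal RNA precursor Rn45s took 30.3% to 55.3% of them. Rbfox3, the gene of NeuN, was detected in every library, at a normalized count of 1762 to 2960.0 in the aging, 2573 to 5301 in the overexpression and 2.94 to 15.1 in the knockdown libraries. Transcripts of other cells were present beside it, with 6 of 6 oligodendrocyte markers and 6 of 6 astrocyte markers detected in each experiment and the myelin gene Mbp at 16017 to 35426 in the overexpression libraries.

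In young neuronal nuclei the constitutive chaperones were by far the most abundant of the family. Divided by transcript length, the normalized count per kb was 11092 ± 2245 for Hspa8, the constitutive cytosolic Hsp70, 4455 ± 1102 for Hsp90ab1, the constitutive cytosolic Hsp90, and 2022 ± 585 for Hspa5 (BiP, the Hsp70 of the endoplasmic reticulum; mean ± SD, n = 3). They ranked 7, 34 and 144 among 23376 genes with a length. The next members were Cct7, a CCT subunit, with 1234 ± 499 per kb, Hsp90aa1, the inducible cytosolic Hsp90, with 1219 ± 61.1 per kb, and Hsp90b1, the Hsp90 of the endoplasmic reticulum, with 1177 ± 76.8 per kb, and these neighbors did not differ beyond their spread. Hspa8 and Hsp90ab1 together held between 34.9% and 49.9% of the summed normalized count of all members in every library of the series. At the other end, Dnajb8, Dnajc22 and Dnajc5g were listed at 0 in every library.

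Promoters of some members are given here because heat shock factor and the unfolded protein response act through known sequence elements. All are from RefSeq on GRCm38.p6, the build called mm10, run 5′ to 3′ from 250 bases before to 50 bases after a transcript start. Of the 85 members 70 had an entry. Hsp90aa1, Hsp90ab1, Hspa8, Hspa9, Dnajc5 and Cct4 were among those without one, so their promoters could not be searched. Capitals mark a heat shock element of 2 units (GAANNTTC or TTCNNGAA, any overlapping matches joined) or an endoplasmic reticulum stress element (CCAAT and, after 9 bases, CCACG), both searched on both strands. Hspd1 and Hspe1 are divergent genes whose annotated starts lie 111 bp apart, so that their first bases overlap; the stretch shown for Hspd1 belongs to a transcript start inside the gene, holds 3 overlapping elements that also fall in the promoter of Hspe1, and the window at the outer start of Hspd1 held none. Hsph1, which encodes the Hsp110 called Hsp105, Hspa5 and Cct8, a CCT subunit with no match, are shown beside it.
Hspd1, chr1:55087883-55088182, minus strand: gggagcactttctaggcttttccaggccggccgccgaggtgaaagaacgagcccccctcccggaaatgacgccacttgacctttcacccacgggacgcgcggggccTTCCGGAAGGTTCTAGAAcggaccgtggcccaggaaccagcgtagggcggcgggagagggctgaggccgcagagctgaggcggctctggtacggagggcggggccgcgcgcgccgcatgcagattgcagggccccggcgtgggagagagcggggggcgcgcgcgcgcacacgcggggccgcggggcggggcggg
Hsph1, chr5:149636266-149636565, minus strand: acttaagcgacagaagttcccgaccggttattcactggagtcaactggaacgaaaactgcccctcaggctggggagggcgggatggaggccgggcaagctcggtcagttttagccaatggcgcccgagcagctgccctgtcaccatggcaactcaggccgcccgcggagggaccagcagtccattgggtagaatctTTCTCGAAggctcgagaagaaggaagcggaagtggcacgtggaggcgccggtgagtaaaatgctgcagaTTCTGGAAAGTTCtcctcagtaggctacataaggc
Hspa5, chr2:34771840-34772139, plus strand: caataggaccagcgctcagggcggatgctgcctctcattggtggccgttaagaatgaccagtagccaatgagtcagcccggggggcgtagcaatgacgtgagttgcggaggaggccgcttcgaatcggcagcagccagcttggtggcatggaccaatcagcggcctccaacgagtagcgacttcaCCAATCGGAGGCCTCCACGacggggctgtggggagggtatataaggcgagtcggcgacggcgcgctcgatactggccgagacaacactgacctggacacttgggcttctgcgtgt
Cct8, chr16:87495820-87496119, minus strand: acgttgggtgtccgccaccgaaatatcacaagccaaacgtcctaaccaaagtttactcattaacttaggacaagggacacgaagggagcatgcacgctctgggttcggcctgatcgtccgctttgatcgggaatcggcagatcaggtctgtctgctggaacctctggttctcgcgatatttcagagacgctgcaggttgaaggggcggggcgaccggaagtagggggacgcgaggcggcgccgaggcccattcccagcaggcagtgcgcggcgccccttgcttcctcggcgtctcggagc

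A heat shock element of 2 units was found in 22 of 89 promoters of the members, or 24.7%, and in 15.1% of all 32851 promoters. An element of 3 units, the 2 units extended by another in the same alternation, was found in 6 of the 89 promoters and in 0.603% of all. The 6 belonged to Hspd1, Hspe1, Hsph1 and Dnajb6. Hspd1 and Hspe1 share the same stretch, and the windows of Hsph1 overlap, as do those of Dnajb6. Counted by gene, it was found in 4 of 70 members and in 0.662% of 27025 genes. The endoplasmic reticulum stress element was found in 3 of 89 promoters, those of Hspa5, Hsp90b1 and Dnajc3 (p58IPK, a J protein of the endoplasmic reticulum), and in 0.119% of all. These matches describe letters and not bound sites.

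The knockdown experiment asked what changed in neurons of the aged hippocampus with the hairpin against Ftl1. Among the members with enough reads to be tested, chaperone transcripts tended to be higher in the libraries labelled Ftl1 KD. The filter on low values, a mean over the 8 libraries of 10 or more normalized counts, left 20 members, of which 10 were called higher (adjusted p of 0.05 or less by limma, adjusted over all 1460 genes tested) and 0 lower, where 10.5% of all genes tested were called higher and 13.7% lower. The 10 were the cytosolic Hsp90aa1, Hspa8 and Dnaja1, the mitochondrial Hspd1 and Hspa9, Hspa5 of the endoplasmic reticulum, the vesicle J protein Dnajc5, and the CCT subunits Cct8, Cct6a and Tcp1. All 20 fold changes were above 0, with a median log2 fold change of 0.95 over the 20 members and -0.01 over all genes tested. The p-values measure the spread between libraries, which the labels do not tie to separate animals. Groups did not overlap for 10 of the 20, all of them higher, where 11.8% of all genes tested did so in that direction and 11.9% in the other.

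The filter on the mean bears on these counts, since 7 of the 20 members had a control mean below 10 and passed through the libraries in which they were higher. The called genes among these 7 were Hspd1, Hspa9 and Cct6a. Among the 13 with a control mean of at least 10, 7 were called. Over all 71 members with any read and no filter, 46 fold changes were above 0 and 25 below, the median was 0.38 beside -0.12 over 13393 genes, and 7 members were called higher and 0 lower, where 0.926% of genes were called higher and 1.57% lower. The 51 members below the filter had a median of 0.06, with 26 above 0, and 14 members had no read.

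Hsp90aa1 (chromosome 12, 110690605 to 110702728, minus strand) was the member with the smallest adjusted p. Its normalized count was 45.3, 39.1, 41.2 and 28.0 in the control libraries against 80.5, 73.1, 92.9 and 113 in the libraries labelled Ftl1 KD. Every library of the second group was above every control. The log2 fold change was 1.21 (SE 0.24, adjusted p = 0.000791 by limma). Hsp90ab1, whose protein is nearly the same, had normalized counts of 113, 186, 182 and 148 in the controls against 199, 172, 142 and 116 in the libraries labelled Ftl1 KD, and these ranges overlapped almost fully (log2 fold change 0.00062, SE 0.22, adjusted p = 0.998 by limma). Hsp90b1 had 9.44, 11.3, 7.49 and 9.61 against 10.5, 22.5, 18.2 and 22.0, with a log2 fold change of 0.84 that was not called (SE 0.36, adjusted p = 0.0862 by limma). Among the 3 Hsp90 genes, only the inducible cytosolic form passed the test.

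The ratio of Hsp90aa1 to Hsp90ab1 does not depend on how libraries are scaled. This ratio of normalized counts was 0.4, 0.210, 0.227 and 0.1898 in the controls against 0.404, 0.424, 0.654 and 0.975 in the libraries labelled Ftl1 KD, so that the groups touched but did not overlap. The mean log2 ratio was 1.23 higher in the libraries labelled Ftl1 KD, which is given as a description with no test, since the ratio was chosen after the values had been seen. In the overexpression experiment it was 0.0570 to 0.2496 in the controls and 0.0671 to 0.148 in the libraries labelled Ftl1 OE, and in the aging experiment 0.279 to 0.443 in young and 0.345 to 0.388 in aged libraries, with overlap in both.

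**Figure D1:**
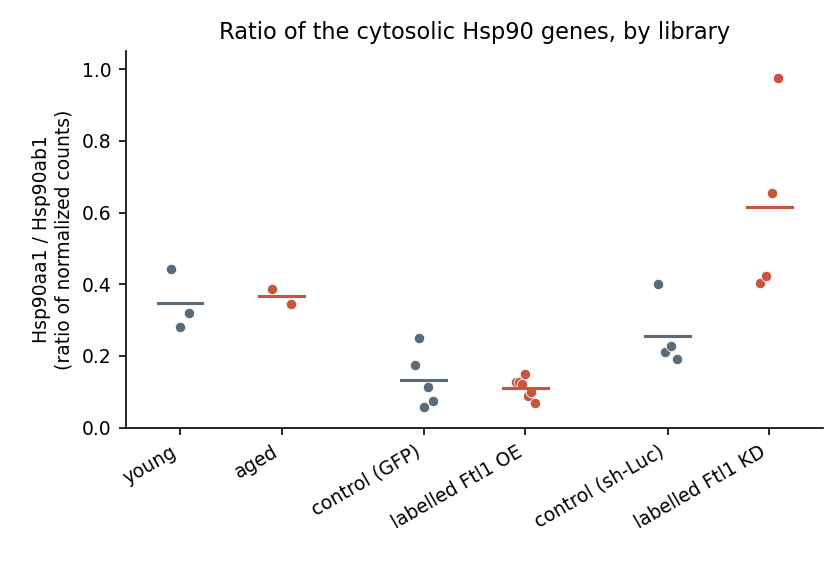
Ratio of the normalized counts of Hsp90aa1 and Hsp90ab1 (vertical axis) in each of the 25 libraries, by group (horizontal axis); points are libraries and short bars group means. The 4 libraries labelled Ftl1 KD sit between 0.404 and 0.975 and their 4 controls between 0.1898 and 0.4.

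Hspa8 (chromosome 9, 40800984 to 40810087, plus strand) had the highest normalized count of any member in the libraries labelled Ftl1 KD. It had normalized counts of 185, 214, 217 and 99.5 in the controls against 319, 335, 352 and 313 in the libraries labelled Ftl1 KD, with no overlap and the lowest control far below the other three. The log2 fold change was 0.94 (SE 0.22, adjusted p = 0.00278 by limma). Its partner at the synaptic vesicle, Dnajc5, rose from 14.2, 22.6, 5.62 and 19.2 to 28.8, 32.5, 36.4 and 39.7, again without overlap, by 1.25 on the log2 scale (SE 0.34, adjusted p = 0.00919 by limma). Dnaja1, the main cytosolic class A J protein and another partner of Hspa8, had 13.2, 8.47, 14.98 and 7.11 in the controls and 26.8, 18.0, 21.9 and 27.9 in the other group (log2 fold change 1.08, SE 0.34, adjusted p = 0.0197 by limma).

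In mitochondria, Hspd1 (Hsp60) had the largest fold change of the 20 members tested. Its normalized counts were 5.66, 5.65, 1.87 and 5.43 in the controls against 18.2, 19.8, 18.2 and 25.0 in the libraries labelled Ftl1 KD, and these rested on 6, 14, 1 and 13 reads against 19, 22, 10 and 17 reads. The groups were well separated in normalized counts, though not in reads, since the control libraries 2 and 5 were the deepest. The log2 fold change was 1.98 (SE 0.46, adjusted p = 0.00265 by limma). Hspe1 (Hsp10), the lid of the Hspd1 ring and its divergent neighbor on chromosome 1 (Hspd1 at 55077835 to 55088243 on the minus strand, Hspe1 at 55088132 to 55091307 on the plus strand), was below the filter. It had normalized counts of 0, 6.45, 1.87 and 3.34 in the controls and 5.75, 6.31, 5.47 and 8.82 in the other group, and the fit without a filter gave a log2 fold change of 1.27 that was not called (SE 0.59, adjusted p = 0.315 by limma). Hspa9 (mortalin), the Hsp70 that pulls proteins into the matrix, had 12.3, 8.07, 11.2 and 3.34 against 28.8, 21.6, 10.9 and 30.9, and 1 library labelled Ftl1 KD lay among the controls (log2 fold change 1.33, SE 0.41, adjusted p = 0.0175 by limma). Dnaja3, the class A J protein of mitochondria, was below the filter and was called only in the fit without one, with a log2 fold change of 1.88 (SE 0.51, adjusted p = 0.0135 by limma). The other mitochondrial members were not called in that fit: Dnajc11 had a log2 fold change of 0.74, Dnajc15 of -0.40, Dnajc19 of -0.28 and Dnajc30 of -0.28. Hspd1 and Hspa9 had control means of 4.65 and 8.73 and so passed the filter through the libraries in which they were higher, and both were also called without the filter (adjusted p = 0.000927 and 0.0355 by limma).

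In the endoplasmic reticulum, Hspa5 had normalized counts of 20.8, 16.1, 14.98 and 20.48 in the controls against 40.3, 41.5, 38.3 and 23.5 in the libraries labelled Ftl1 KD. One library of the second group was close to the controls, and the groups did not overlap. The log2 fold change was 0.93 (SE 0.29, adjusted p = 0.0195 by limma). Of the 10 members placed in this compartment only Hspa5 and Hsp90b1 passed the filter. Among 16 genes of the unfolded protein response, 7 were tested, 2 were called higher and 0 lower, where 10.5% and 13.7% of all genes tested were. The 2 were Canx and Pdia3. Canx (calnexin, a lectin chaperone) had a log2 fold change of 1.21 (SE 0.34, adjusted p = 0.0121 by limma). Pdia3 (a disulfide isomerase) had 1.10 (SE 0.34, adjusted p = 0.0191 by limma). Calr (calreticulin), the soluble relative of Canx, had a log2 fold change of -0.91 and was not called (SE 0.35, adjusted p = 0.0571 by limma), and the transcription factors Xbp1 and Atf4 had -0.13 and 0.33 (adjusted p = 0.852 and 0.496 by limma).

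All 8 CCT subunits were tested, and 3 of them were called higher, where 10.5% of all genes tested were. Cct2, Cct4 and Cct6a had control means below 10 and so passed the filter through the libraries in which they were higher. In the fit without a filter, Cct8 was the only 1 of the 8 to be called. Cct8 (chromosome 16, 87483326 to 87495873, minus strand) had normalized counts of 14.2, 9.28, 14.98 and 4.60 in the controls against 44.1, 26.2, 21.9 and 33.8 in the libraries labelled Ftl1 KD, without overlap (log2 fold change 1.53, SE 0.36, adjusted p = 0.00278 by limma). Cct6a had 7.55, 9.28, 13.1 and 8.78 against 21.1, 21.6, 31.0 and 17.6 (log2 fold change 1.15, SE 0.34, adjusted p = 0.0142 by limma), and Tcp1, the founding subunit, had 14.2, 8.47, 11.2 and 8.78 against 35.5, 24.4, 14.6 and 22.0 (log2 fold change 1.07, SE 0.34, adjusted p = 0.0239 by limma). The remaining 5, whose products sit in the same ring, had log2 fold changes of 0.96 (Cct2), 0.68 (Cct3), 0.67 (Cct4), 0.41 (Cct5) and 0.39 (Cct7) and were not called, with adjusted p between 0.0850 and 0.408 by limma. Summed over the 10 genes of the family, the normalized count was 88.2 to 140.4 in the controls and 173 to 216 in the other group. Cct8, Tcp1, Cct6a and Cct7 each overlap a gene on the opposite strand (Usp16, Mrpl18, Psph and Pradc1), as do Dnaja1 (Smu1) and Dnajc7 (Cnp), and Hspd1 with Hspe1; the labels and the methods describe different library kits, so it is not known whether reads were assigned by strand.

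Among members made on heat stress, Hsp90aa1, Dnaja1 and Hspd1 separated the groups as given above, and others did not. Hspa1a, an Hsp70 made on stress, had normalized counts of 0, 3.23, 0 and 1.67 in the controls against 1.92, 1.80, 7.29 and 0 in the libraries labelled Ftl1 KD, and its near-identical copy Hspa1b was listed at 0 in all 8; reads of the 2 copies cannot be divided with certainty. Dnajb1 (Hsp40), also strongly induced by heat, had 5.66, 7.26, 3.74 and 5.85 against 1.92, 7.22, 9.11 and 1.47, and Hsph1, tested, had 5.66, 17.3, 16.9 and 11.3 against 18.2, 12.6, 7.29 and 11.8 (log2 fold change 0.01, SE 0.41, adjusted p = 0.988 by limma). The wider list of 10 members taken as stress-inducible also holds the constitutive Hspa8. Of its 5 tested members 4 were called higher (Hsp90aa1, Hspa8, Dnaja1 and Hspd1), where 10.5% of all genes tested were. Hspd1 had passed the filter through the libraries in which it was higher. The untested Hspa1a, Hspb1, Dnajb1 and Hspe1 were not called in the fit without a filter, with log2 fold changes of 0.65, -0.10, -0.40 and 1.27. Of the 6 tested members with a heat shock element of 2 units in a promoter, 3 were called (Cct6a, Dnaja1 and Hspd1). So were 3 of 8 without one and 4 of 6 with no promoter entry (Hsp90aa1, Hspa8, Hspa9 and Dnajc5). Among these called genes, Cct6a, Hspd1 and Hspa9 had passed the filter through the libraries in which they were higher. Hsbp1, which encodes a protein that binds heat shock factor, was the only 1 of 5 tested cochaperones outside the members to be called, from 16.9 ± 4.96 to 30.6 ± 1.70 (SD, n = 4 each; log2 fold change 0.86, SE 0.30, adjusted p = 0.0341 by limma).

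**Figure D2:**
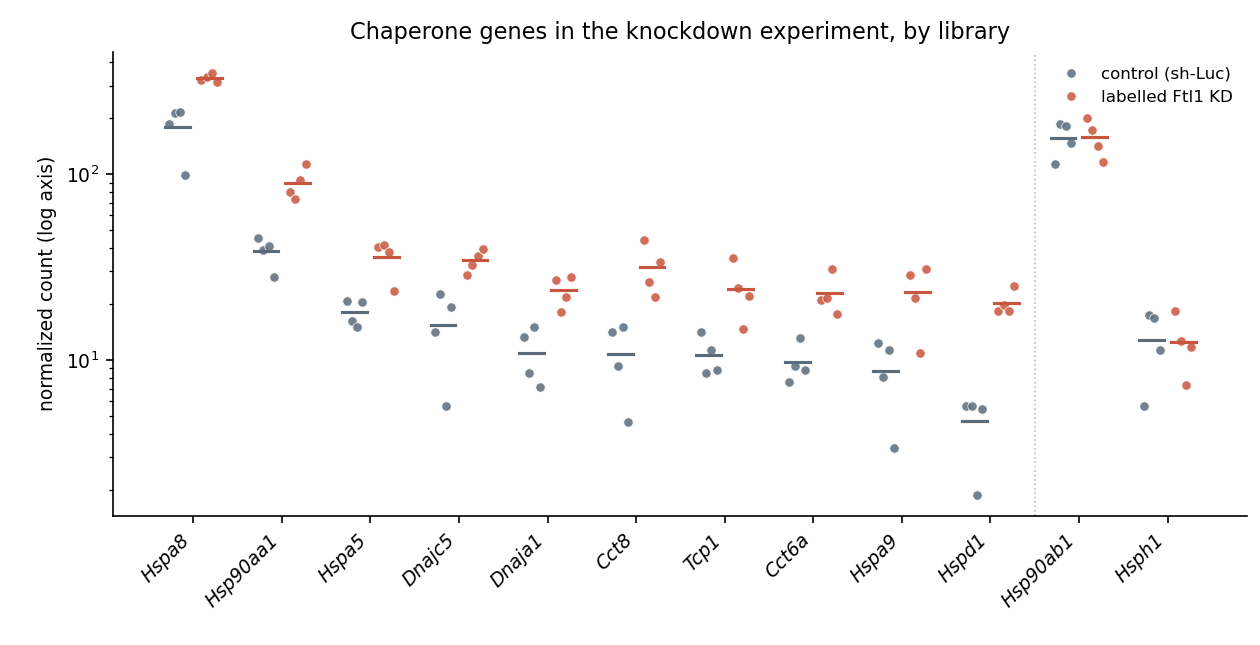
Normalized count (vertical log axis) in each knockdown library for the 10 members called higher and, right of the dotted line, for Hsp90ab1 and Hsph1; points are libraries and short bars group means (n = 4 each). The groups do not overlap for 9 of the 10, Hspa9 being the exception, while those of Hsp90ab1 and Hsph1 lie over each other.

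Sums over whole classes use every member, the untested included. Over all 85 members the summed normalized count was 616 to 833 in the controls and 1115 to 1184 in the libraries labelled Ftl1 KD, or 0.914% to 1.33% and 1.82% to 1.95% of the reads other than Rn45s. Without Hspa8 and Hsp90ab1 it was 369 to 453 and 625 to 686, a ratio of means of 1.60. The class sums did not overlap for Hsp90 (168 to 237 against 251 to 291), Hsp70 (143 to 265 against 375 to 421), class A J proteins (18.7 to 29.0 against 40.1 to 57.5), class C J proteins (69.3 to 107.6 against 108.4 to 146), CCT and the mitochondrial chaperonin (3.74 to 12.1 against 23.7 to 33.8). They overlapped for class B J proteins (31.8 to 41.9 against 31.6 to 50.5) and Hsp110 (18.0 to 39.3 against 12.8 to 33.6). Single called genes weighed on some of the sums. Hspa8 had 99.5 to 217 against 313 to 352 of the Hsp70 sum, and Hsp90aa1 28.0 to 45.3 against 73.1 to 113 of Hsp90. Dnaja1 had 7.11 to 14.98 against 18.0 to 27.9 of class A, and Dnajc5 5.62 to 22.6 against 28.8 to 39.7 of class C. A class sum therefore does not show that its other members were higher. Not all Hsp70 genes were higher: Hspa12a, an atypical brain Hsp70, had 16.04, 14.5, 5.62 and 7.11 against 0.959, 3.61, 7.29 and 1.47, and Hspa2 had 10.4, 4.84, 1.87 and 2.93 against 0, 0.902, 0 and 1.47. Both were below the filter, and the fit without it gave log2 fold changes of -1.57 and -1.83 that were not called (SE 0.53 and 0.74, adjusted p = 0.0873 and 0.214 by limma).

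Other members below the filter had few reads, and of all members below it only Dnaja3 was called in the fit without it. Dnaja2, a cytosolic J protein of class A, had 5.66, 5.24, 1.87 and 6.69 in the controls against 10.5, 19.8, 9.11 and 10.3 in the libraries labelled Ftl1 KD, without overlap (log2 fold change 1.23 without a filter, SE 0.48, adjusted p = 0.18 by limma). Dnajb2 had 8.49, 4.03, 9.36 and 3.76 against 3.84, 3.61, 3.64 and 4.41, and Dnajc6 (auxilin, which with Hspa8 strips clathrin from vesicles) had 10.4, 3.63, 7.49 and 7.52 against 12.5, 5.41, 9.11 and 5.88, both with overlap. The Hsp110 genes Hspa4 and Hspa4l and the J protein Dnajb6, which keeps aggregating proteins soluble, also overlapped, with 2.93 to 20.6, 1.21 to 9.44 and 5.62 to 11.7 in the controls against 4.41 to 13.4, 0 to 5.88 and 2.94 to 14.4. Hspa13 had at most 6.71 and the small heat shock proteins Hspb1 and Hspb6 at most 1.82 in any library.

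**Figure D3:**
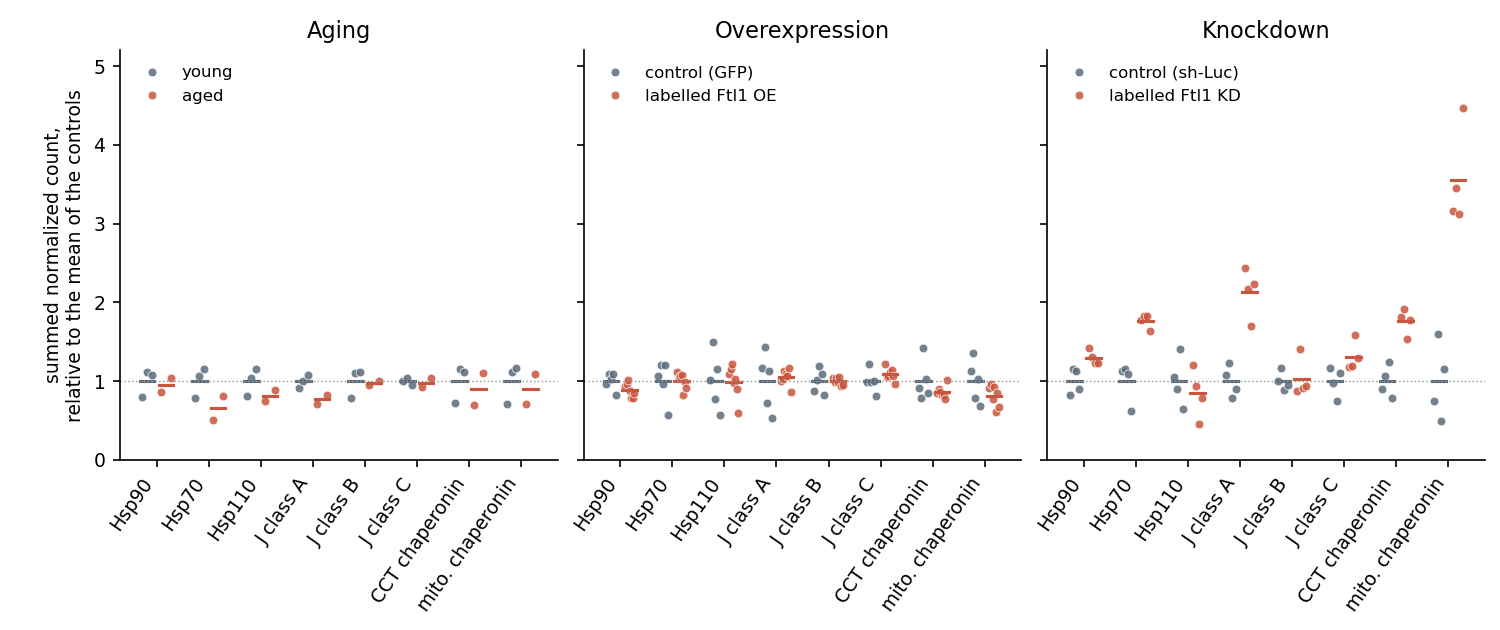
Normalized counts summed over each chaperone class in each library, divided by the mean of that experiment's controls (vertical axis), for 8 classes (horizontal axis) in the 3 experiments; points are libraries, short bars group means and the dotted line the control mean. In the knockdown panel the mitochondrial chaperonin reaches 3.13 to 4.46 and Hsp70 1.63 to 1.83, while the groups of class B J proteins and Hsp110 overlap. No class separates the groups in the overexpression panel. In the aging panel only class A J proteins do, at 0.914 to 1.08 in young and 0.715 to 0.828 in aged libraries. Hsp70 overlaps there, with 0.781 to 1.16 in young and 0.507 to 0.811 in aged libraries.

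Other RNA moved with the groups of this experiment. All 4 tested of 7 nuclear-retained RNAs fell in the libraries labelled Ftl1 KD, with Malat1 at 378 ± 138 in the controls and 100.95 ± 28.7 in the other group (SD, n = 4 each; log2 fold change -1.87, adjusted p = 5.47e-06 by limma), and the 7 summed to 619 to 1235 and to 219 to 322. Of 6 oligodendrocyte markers, summing to 36.8 to 93.6 and to 10.9 to 21.6, the 2 tested (Mbp and Cnp) fell, and of 6 astrocyte markers, summing to 28.1 to 60.1 and to 59.5 to 69.2, Slc1a3 rose and Aldoc was not called; fewer cells of a type and less RNA per cell cannot be told apart in such samples. Of 4 markers of oligodendrocyte precursors, summing to 2.09 to 16.9 and to 16.3 to 29.1, 1 was tested and not called. Of 18 immediate early genes, 3 were tested and Arc and Egr1 fell, and of 6 neuronal markers 3 were tested with 0 called (sums 159 to 265 and 157 to 189). Microglial markers summed to at most 7.52, and the endothelial markers Flt1, Pecam1 and Vwf were at 0 in all 8 libraries. The libraries labelled Ftl1 KD were also the shallower ones (48902 to 97104 reads against 68092 to 358560) and held less Rn45s (30.3% to 34.5% against 31.9% to 55.3%). Over all genes tested, the log2 fold change had a Spearman correlation of -0.38 with transcript length (n = 1427), and 0.18 over the 20 members. The part of these differences in the chaperone result was not tested.

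Across the alternatives, 5 of the 10 calls (Hsp90aa1, Hspd1, Cct8, Hspa8 and Dnajc5) kept an adjusted p of at most 0.0308 wherever they were tested. Hspa5, Dnaja1, Tcp1 and Cct6a were not called without the filter (adjusted p between 0.0764 and 0.1099 by limma) or with the replicate number as a block (0.0530 to 0.130), and these 4 and Hspa9 each lost the call when some single library was left out, with adjusted p between 0.0505 and 0.107 by limma.

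The aging experiment asked what differed between neuronal nuclei of young and aged hippocampus. No chaperone gene was called. Of 71 members tested, 0 were called higher and 0 lower (by limma, with an adjusted p up to 0.05 and a log2 fold change of 0.5 or more in size), as were 0% of all 13712 genes tested in either direction. Before adjustment, p was 0.05 or below for 0 members in the higher direction, where it was for 2.9% of all genes, and for 3 in the lower direction, where it was for 5.04%. Groups did not overlap for 5 members that were higher and 9 that were lower, beside 12.2% and 12.5% of all genes. The median log2 fold change was -0.21 over the members and -0.03 over all genes, and it was 0.04 without aged replicate 2.

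Several Hsp70 genes had lower means in the aged libraries, without any call and with much of the difference in 1 library. Hspa8 had normalized counts of 18825, 26514 and 28083 in young and 12322 and 18949 in aged libraries, so that the higher aged library was just above the lowest young one (log2 fold change -0.66, SE 0.35, adjusted p = 0.649 by limma). Hspa2, known from the testis but also expressed in brain, had 358, 393 and 406 against 86.0 and 247, and Hspa12a had 2274, 2905.0 and 2541 against 1721 and 1482; both aged values were below all young values for each (log2 fold changes -1.39 and -0.68, SE 0.47 and 0.26, adjusted p = 0.5261 and 0.563 by limma). Hspa5 and Hspa9 had log2 fold changes of -0.67 and -0.57 with overlapping groups. Aged replicate 2 carried much of this: without it the log2 fold change was -0.04 for Hspa5, -0.20 for Hspa9, -0.35 for Hspa8 and -0.64 for Hspa2, while Hspa12a had -0.79. In class A, Dnaja1 had 1702, 1472 and 1679.9 against 1004 and 1199.8, and Dnaja4 went the other way with 370.2, 325 and 336 against 449.7 and 519 (log2 fold changes -0.56 and 0.49, adjusted p = 0.642 and 0.724 by limma). Dnajb1 had a log2 fold change of -0.68 and Dnajb2, which guides clients to the proteasome in neurons, one of 0.70, each with no overlap between the groups.

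The Hsp110 genes had log2 fold changes of 0.15 (Hspa4), -0.47 (Hspa4l) and -0.38 (Hsph1), and those of the remaining J proteins named were -0.46 (Dnaja2), 0.01 (Dnajb6), 0.05 (Dnajb5), 0.27 (Dnajc5), -0.19 (Dnajc6) and 0.81 (Dnajc4), with adjusted p of at least 0.7099 by limma. Among these 9 genes, the groups did not overlap for Hspa4l, which was lower in both aged libraries, and Dnajc4, which was higher in both. The stress-made Hspa1a ranged widely within each group, with 12.4, 77.4 and 148 in young and 15.8 and 335 in aged libraries.

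The 25 class C J proteins tested had a median of 0.12 and the 9 CCT genes one of -0.27 (the 8 ring subunits from -0.60 in Cct4 to 0.26 in Tcp1), beside -0.57 over 9 Hsp70 genes and -0.44 over 4 genes of class A and -3.34 over the 2 small heat shock proteins tested (Hspb8 and Hspb6), both at low counts. Hsp90aa1 was almost equal between groups, with 3574, 3701 and 3943 in young and 3788 and 3988 in aged libraries (log2 fold change 0.06, SE 0.25), and Hsp90ab1 had 8063, 13257 and 12363 against 9765 and 11552 (log2 fold change -0.05, SE 0.32; adjusted p = 0.967 and 0.978 by limma). Hspb8, a small heat shock protein of the autophagy of misfolded clients, had 66.4, 3.18 and 69.2 in young libraries and was listed at 0 in both aged libraries. Against a floor of 3 reads per aged library, Hspb8 was at least 16.2-fold lower there than its mean of 46.3 ± 37.3 in young libraries (SD, n = 3). Young replicate 2 itself held only 3 reads, beside 64 and 78, so this fold rests on the other young libraries. DESeq2 on the recovered reads called Hspb8 lower (adjusted p = 0.0292), whereas limma did not (adjusted p = 0.601). In the simulated aging data described below, 18.1% of the DESeq2 calls were unchanged genes, against 1.83% for limma. Those data held 4-fold changes in genes drawn at random from all that passed the filter. These shares therefore cannot decide the call of Hspb8.

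**Figure D4:**
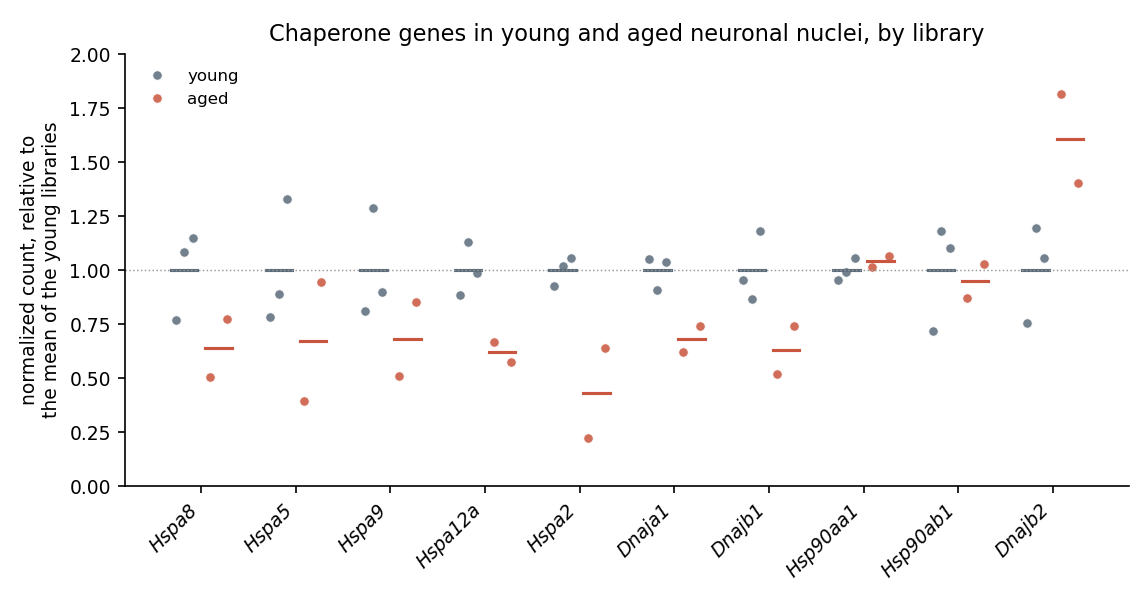
Normalized counts relative to the mean of the 3 young libraries (vertical axis) for 10 named members in the young and aged libraries; points are libraries and short bars group means. Both aged values lie below all young values for Hspa12a, Hspa2, Dnaja1 and Dnajb1 and above them for Dnajb2, and no member passed the test.

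Of the cochaperones outside the members, 34 of 35 were tested and 0 called in either direction, with a median of -0.04, and of 16 genes of the unfolded protein response 0 were called. Hyou1, the Hsp110-like partner of Hspa5, had a log2 fold change of 1.27 and Trap1, the Hsp90 of mitochondria, one of -0.75 (adjusted p = 0.534 and 0.556 by limma). Of 6 prefoldin subunits 0 were called. Astrocyte and oligodendrocyte markers, 6 of each tested with 0 called, summed to 2938 to 4356 and 2914 to 6565 in young and to 1897 to 4095 and 3087 to 4286 in aged libraries.

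The overexpression experiment asked for the reverse, the effect of more Ftl1 in young neurons. Again no chaperone gene was called. Of 75 members tested, 0 were called higher and 0 lower by limma, as were 0% of all 14099 genes in either direction, and the median log2 fold change was 0.08 over the members and 0.10 over all genes. At an unadjusted p of 0.05 or less, 4 members were higher, where 3.6% of all genes were, and 4 were lower, where 3.66% were. Groups did not overlap for 0 members in the higher and 2 in the lower direction, where 0.17% and 0.411% of all genes did so. Those 2 were the mitochondrial Hspe1 and Dnajc15.

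Hspe1 had normalized counts of 733, 739, 1093, 778 and 1015 in the controls and between 432 and 689, with a median of 599, in the 7 libraries labelled Ftl1 OE. All 7 were below the lowest control (log2 fold change -0.62, SE 0.21, adjusted p = 0.546 by limma). Dnajc15, a J protein at the inner mitochondrial membrane, had 696, 542, 901, 536 and 773 against 346 to 534 with a median of 502 (log2 fold change -0.59, SE 0.23, adjusted p = 0.598 by limma), and the gap between the groups was narrow. Hspd1, the partner of Hspe1, had 1632, 2124, 568, 1387 and 431 against 689.9 to 1499 with a median of 1188, and the groups overlapped (log2 fold change 0.10, SE 0.36). Of the 8 mitochondrial members tested, 3 had lower values and p of 0.05 or below before adjustment, the third being Dnajc30, with a log2 fold change of -0.52 (adjusted p = 0.660 by limma).

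In class C, 3 J proteins were higher at that limit before adjustment. Dnajc16 had 596, 379, 776, 423 and 303 in the controls and 504 to 1262 with a median of 983 in the libraries labelled Ftl1 OE (log2 fold change 0.97, SE 0.28, adjusted p = 0.499 by limma). Dnajc27, a J protein joined to a small GTPase fold, had 875, 1092, 538, 1029 and 792.0 against 1071 to 1862 with a median of 1277 (log2 fold change 0.65, SE 0.22, adjusted p = 0.546 by limma), with 1 control among the other group. Dnajc5 had 2500.5, 2749.9, 1528, 2508 and 1698 against 2454 to 3475 with a median of 2965 (log2 fold change 0.43, SE 0.18, adjusted p = 0.640 by limma). The fourth was Hspb3, a small heat shock protein of muscle and nerve, with a log2 fold change of 2.09 (SE 0.89), and on the lower side Hspbp1, which releases nucleotide from Hsp70, had -0.76 (SE 0.32; adjusted p = 0.640 for both by limma).

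The abundant cytosolic chaperones gave overlapping groups. Hspa8 had 38719, 41404, 39615, 44441 and 22468 in the controls and 27749.6 to 41514 with a median of 38616 in the libraries labelled Ftl1 OE (log2 fold change 0.02, SE 0.24), Hsp90ab1 25273 to 33321 against 23140.4 to 29458 (-0.15, SE 0.19) and Hsp90aa1 1899 to 6309 against 1797 to 3588 (-0.24, SE 0.30; adjusted p = 0.981, 0.837 and 0.831 by limma). Control replicate 5 had the lowest Hspa8 of the experiment and the lowest sum over all members, and control replicate 3, with the highest Ftl1 (28309) and the fewest genes with reads (12281), had the highest Dnajb1; without either library 0 members were still called. Hspa5 ranged from 2448 to 11182 in the controls and from 3109.6 to 9196 in the libraries labelled Ftl1 OE (log2 fold change 0.15, SE 0.37), and Hsp90b1 from 521 to 6744 and from 952 to 3724 (log2 fold change 0.33, SE 0.53; adjusted p = 0.919 and 0.872 by limma), so that both genes of the endoplasmic reticulum spread widely within the controls. The 8 CCT subunits had log2 fold changes from -0.37 (Cct7) to 0.26 (Cct8), all with overlapping groups. The inducible Hspa1a had 258 to 752 in the controls and 149 to 561 in the libraries labelled Ftl1 OE (log2 fold change -0.17, SE 0.35, adjusted p = 0.905 by limma). Hspa13 had 13.5 to 744 against 308 to 674, with overlap (log2 fold change 1.40, SE 0.70, adjusted p = 0.680 by limma).

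Of 35 cochaperones outside the members 0 were called, and of 16 genes of the unfolded protein response 0 were called, Sdf2l1 and Ddit3 having log2 fold changes of -0.89 and -0.97 (adjusted p = 0.499 and 0.565 by limma). The 6 prefoldin subunits, which hand nascent actin and tubulin to CCT, had a median log2 fold change of -0.52 with 0 called, and their summed normalized count was 3713 to 6622 in the controls and 2594 to 3379 in the libraries labelled Ftl1 OE, without overlap. Microglial markers, 6 of 6 tested with 0 called, summed to 1073 to 2415 in the controls and to 495 to 1309 in the libraries labelled Ftl1 OE. Transcript length also went with the fold change here, with a Spearman correlation of 0.27 over all genes (n = 13571) and 0.15 over the 75 members. The median over all genes was -0.26 for transcripts shorter than 1500 bp and 0.15 for longer ones. The part of the microglial markers and of length in the values above was not tested.

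The members called in the knockdown experiment can be read beside the other experiments, which share no library with it. Of the 10, 7 had a log2 fold change below 0 with age, with a median of -0.39, as did 17 of all 20 tested, with a median of -0.25, and 7083 of 13712 genes. The fold change was below 0 in the libraries labelled Ftl1 OE for 1 of the 10 (Hsp90aa1), with a median of 0.13. It was below 0 for 6 of the 20, with a median of 0.09. Both medians were close to that of all genes tested in the overexpression experiment, given above. Hspa8 had log2 fold changes of 0.94 in the libraries labelled Ftl1 KD, -0.66 with age and 0.02 in the libraries labelled Ftl1 OE, and Hspd1 had 1.98, -0.21 and 0.10. None of these genes was called in the aging or the overexpression experiment. Across the 20 members tested in the knockdown experiment, the fold changes had a Spearman correlation of -0.04 with those of aging and of 0.55 with those of the libraries labelled Ftl1 OE (20 genes, which are not independent replicates). No correlation over all genes was set beside these, so they are not shown to be particular to chaperones.

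**Figure D5:**
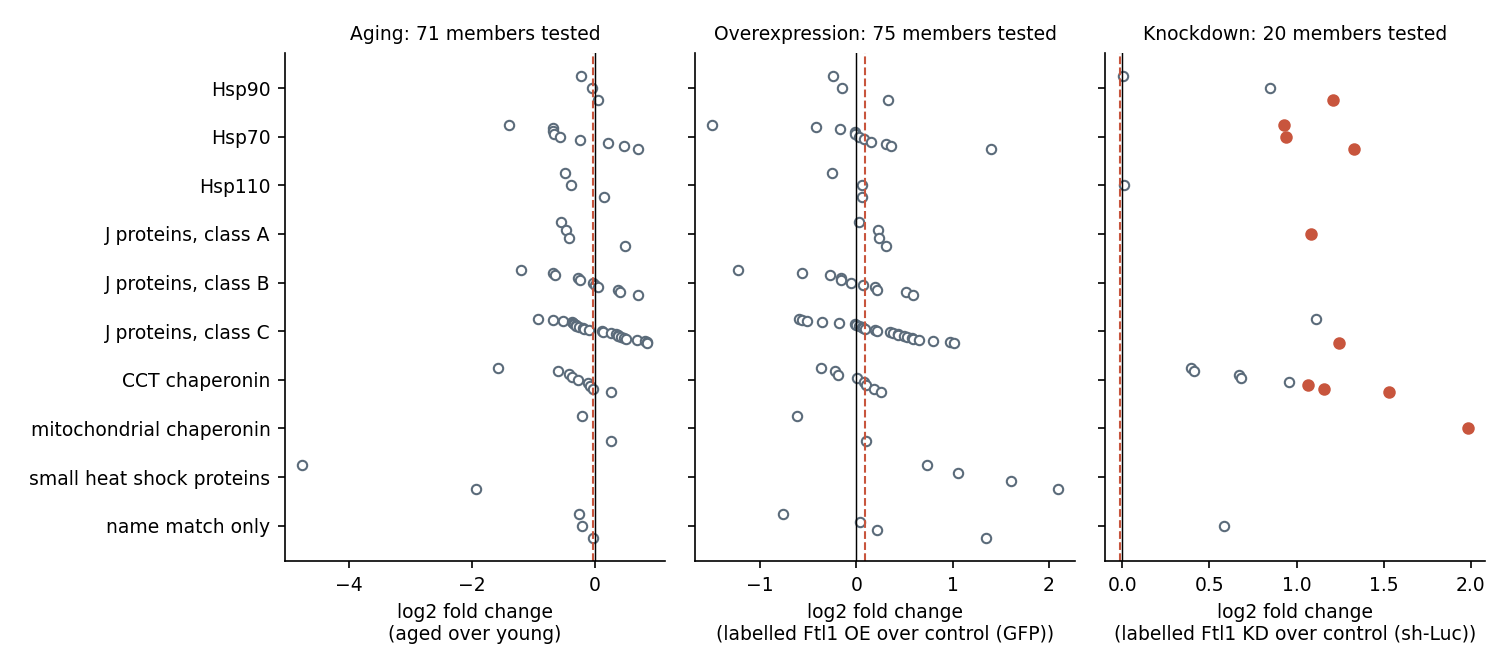
Log2 fold change of each member tested (horizontal axis, with its own range in each panel) by chaperone class (vertical axis) in the 3 experiments; filled points are members with an adjusted p of 0.05 or less by limma, open points the others, and the dashed line is the median of all genes tested. The 20 knockdown points all lie above 0, with 10 filled, and no point is filled in the other panels.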

How the data were processed

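Nuclei of mouse hippocampus sorted for NeuN gave 25 libraries. Per the study's methods and processing notes, the authors aligned reads to mm10 with STAR, counted them with RSEM and ran DESeq2. The deposited values are signal, that is gene counts that the authors divided by DESeq2 size factors, separately in each of the 3 tables; every value was a whole multiple of the worth of 1 read (100% of values, within a tolerance of 0.1), so that reads could be recovered. The tables also hold the authors' own fold changes, errors and p-values, which were not used. No other column of per-sample values was left unused (0).

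Normalized counts were taken as log2(value + 1), genes with a mean of at least 10 in an experiment were kept, and groups were compared within a table by limma-trend 3.58.1 in R 4.3.3 with Benjamini-Hochberg adjustment over all genes kept. Called means an adjusted p of 0.05 or less and, for aging, a log2 fold change of 0.5 or more in size. A fold change on this scale understates the change of low genes. Alternatives were a pseudocount of 0.5 or 5, no filter, a mean of at least 100, TMM scaling, centring on the median, edgeR 4.0.16 (quasi-likelihood) and DESeq2 1.42.0 on the recovered reads, the replicate number as a block, and leaving out each library. Tables were not compared in level. In simulated data with 4-fold changes in 200 genes, limma recovered 54.0% with the aging libraries, 52.3% with those of overexpression and 88.8% with those of knockdown. These were changed among 13412, 13901 and 1435 genes run. The changed share was far larger with knockdown, so the recoveries cannot be compared between experiments. The least different pair of libraries of 1 group had a chi-square of 1.40 per degree of freedom, so none held the same reads as another. Pairs labelled Ftl1 KD had 1.40 to 1.69 and pairs of their controls 2.52 to 7.17. Values this near 1 cannot tell separate animals from repeat libraries of the same RNA.

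Gene positions and lengths are from GENCODE M21 (GRCm38) and promoters from RefSeq GRCm38.p6. Genes to name were a list of core chaperones, every called member, the most abundant of each class and the 3 highest and 3 lowest fold changes among members with a mean of at least 100 (10 in the knockdown experiment). Dnaja3, Dnaja4, Dnajc11, Dnajc19, Dnajc27, Dnajc30, Hspb3 and the ratio of the Hsp90 genes were added after values were seen. Not every gene so chosen is described in each experiment, Hspa1l with age and Dnajc9 in overexpression being among those left out. The members, gene lists and tests were chosen with earlier results of these data known.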

Additional observations from a re-analysis of the deposited data

Results flagged for a closer look

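Among 162 groups of 4 to 10 libraries examined, 14 held a library whose gap to its nearest neighbor passed the 95% limit of Dixon's test, and chance alone flags about 1 in 20 groups. In the overexpression experiment, control replicate 5 was low for Hspa8 at a normalized count of 22468 (the other controls had 38719 to 44441), for Cct4 at 157 (1141 to 1469.8) and for the sum over all members at 113834 (155006 to 171674), and control replicate 3 was high for Dnajb1 at 2179.9 (1108 to 1361). Among the libraries labelled Ftl1 OE, replicate 5 was low for Hspa8 at 27749.6 (36530.4 to 41514) and for Tcp1 at 1093 (1751 to 2184) and high for Hspa13, an Hsp70 of microsomes, at 674 (308 to 449); replicate 7 was low for Hspa5 at 3109.6 (6709 to 9196) and for Dnaja2 at 1206 (1984 to 2532), and replicate 4 was high for Cct6a at 2229 (1665 to 1813). In the knockdown experiment, control replicate 3 was low for Hspd1 at 1.87 (5.43 to 5.66), a value that rests on 1 read, and control replicate 5 was low for Cct3 at 9.61 (14.98 to 16.04) and for the Hsp70 sum at 143 (251 to 265). The library labelled Ftl1 KD replicate 3 was high for the sum of class B J proteins at 50.5 (31.6 to 33.8).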

How the results depend on the processing

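No chaperone result changed direction in a called value. In the aging experiment DESeq2 called 1 member lower (Hspb8) where limma called 0, and the median log2 fold change of the members ranged from -0.31 to 0.043 when each library was left out, the highest (0.0431) without aged replicate 2. In the knockdown experiment the median of 0.95 was 0.79 with a pseudocount of 5, 0.38 without a filter and 0.47 with a mean of at least 100, which left 2 members, of which 1 was called; lower or higher filters change how many genes are tested. Leaving out each knockdown library gave 7 to 11 members called higher and medians from 0.85 to 0.99, edgeR called 11 and DESeq2 10. With the replicate block 7 members were called in the knockdown experiment (median 0.95) and the aging median was -0.27. The correlation of same-numbered libraries' deviations was -0.05 and 0.02 in the aging experiment and between -0.05 and -0.02 in the knockdown experiment. With 2 aged libraries, whose deviations mirror each other, and few reads in the knockdown libraries, these values could not exclude pairing by number. The cause of the lost calls was not tested. In the overexpression experiment 0 members were called under every alternative, and centring on the median moved the members' median from 0.08 to -0.01, the median of all genes being 0.10. Depth limits the knockdown experiment: its libraries had 427 to 2066 reads over all members, so 65 of 85 were not tested.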
